A study of Mus musculus with 4 samples.

Results

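The aminoacyl-tRNA synthetase genes are described here as the 40 protein-coding genes, of 56748 genes listed in the count table, whose symbols consist of a letter code for an amino acid followed by "ars", with or without a number, together with Eprs, Farsa, Farsb, Tarsl2, Aimp1 and Aimp2. The rule uses symbol and biotype and no measured value, although this group of genes was taken up with earlier results of these data known. Of these, 19 encode cytosolic enzymes, 17 encode mitochondrial enzymes and 2 (Gars and Kars) encode enzymes that work in both compartments. The remaining 2, Aimp1 and Aimp2, encode scaffold proteins that carry no synthetase activity. The compartments were assigned from general knowledge of the enzymes. Symbols and, for genes, coordinates are those of the table, in which Aars, Kars, Nars and the like stand for genes that are also written Aars1, Kars1 and Nars1. All 40 genes passed the filter on low counts, with between 57 and 13340 reads in a library.

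E14 cells, which are mouse embryonic stem (ES) cells, were profiled by RNA-seq to learn how gene expression differs when Npac is lost. Wild-type (WT) cells gave the libraries WT1 and WT2. The Npac knockout (KO) lines gave the libraries KO1 and KO2, and came from E14 cells that received Cas9 and guide RNA plasmids, were selected with puromycin and were picked as colonies, so that each line is a clone. Nothing in the labels says that WT1 and WT2 came from separate cultures, so the p-values measure the spread between these libraries, which may be partly technical. The counts summed to 15850805 (WT1), 16568283 (WT2), 16233971 (KO1) and 16965120 (KO2). Npac, listed as Glyr1, had 3961 and 3115 reads in WT1 and WT2 and 744 and 888 reads in KO1 and KO2. Its log2 fold change (log2FC, KO against WT) was -2.14 with a standard error (SE) of 0.23 (adjusted p = 0.00174 by edgeR's quasi-likelihood test), and both KO libraries lay below both WT libraries. Reads on this gene thus remained in the KO libraries at 22.7% of the WT mean. By qPCR the study found the Npac mRNA lost completely, and by Western blot it found no Npac protein in either KO clone.

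The label of ES cells was checked against 7 marker genes. Their summed level was 5775 and 4508 CPM (TMM-normalized counts scaled to equal library size) in WT1 and WT2 and 3377 and 3115 CPM in KO1 and KO2. None was at 0. The most abundant was Esrrb in WT1, Tdgf1 in WT2 and KO1, and Nanog in KO2. Of the 7, only Zfp42 (also called Rex1) passed both thresholds, and it fell, with 945, 697, 134 and 129 CPM in WT1, WT2, KO1 and KO2. The markers of other cell types were far lower. The 6 fibroblast markers summed to 41.1, 76.1, 49.8 and 60.0 CPM in the same order, with Thy1 as the most abundant, Col1a1 up-regulated, and Col3a1 and Dcn at 0 in every library. The 6 primitive endoderm markers summed to 29.3, 28.2, 14.7 and 21.7 CPM. Sox7 was down-regulated, with 17.9, 9.27, 0.26 and 0.92 CPM. Gata4 had 6.68, 9.27, 9.65 and 12.7 CPM and was the most abundant in the KO libraries. The 4 trophoblast markers summed to 9.95, 12.8, 13.7 and 12.4 CPM, with Eomes as the most abundant and no gene passing the thresholds. The 4 neural markers summed to 80.5, 55.2, 55.0 and 64.1 CPM, with Tubb3 as the most abundant, Sox1 down-regulated and Neurod1 up-regulated. The part of any marker change in the results below was not tested. In bulk RNA, fewer cells that express a gene and less RNA per cell cannot be told apart.

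The KO libraries also differed from the WT libraries by chromosome. Taken against the mean of the WT pair, the median log2 difference was 0.51 in KO1 and 0.52 in KO2 over the genes of chromosome 8, and 0.51 and 0.48 over those of chromosome 11, whereas on the 17 other autosomes the medians lay between -0.20 and -0.0041. Aars, Kars, Farsa and Cars2 lie on chromosome 8 and Rars lies on chromosome 11. For these 5 genes the log2 fold change is also given after each chromosome's median had been removed from each KO library.

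An aminoacyl-tRNA synthetase joins an amino acid to the tRNAs that carry its anticodons, at the cost of ATP, and so sets the match between codon and amino acid. The cytosol and the mitochondrion translate separately, and most amino acids have a separate nuclear gene for the enzyme of each compartment. The enzymes fall into class I and class II by the fold of their catalytic domain, and several cytosolic enzymes sit together with Aimp1, Aimp2 and Eef1e1 in the multisynthetase complex. In mammals many cytosolic synthetase genes are known targets of Atf4, the transcription factor whose translation rises when uncharged tRNA activates the kinase Gcn2 (Eif2ak4). Atf4 binds the C/EBP-ATF response element, with the core TGATGNAA.

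In WT cells most genes for cytosolic enzymes were expressed above those for mitochondrial enzymes. Per kb of gene length, the median level was 60.2 CPM over the 19 cytosolic genes and 9.45 CPM over the 17 mitochondrial genes. Among cytosolic genes Nars, the asparagine enzyme, was highest at 142 ± 19.6 CPM per kb (SD, n = 2), followed by Aars, the alanine enzyme, at 81.8 ± 6.85. Lars, Iars, Rars and Mars1 followed between 79.2 and 81.7 CPM per kb, differing from Aars and from each other by less than the spread of the WT pair. The lowest cytosolic genes were Farsa, the alpha subunit of the phenylalanine enzyme, at 23.1 ± 1.67 CPM per kb, and Tarsl2, a further threonine enzyme, at 2.51 ± 0.47. Its paralog Tars stood at 50.6 ± 5.38 CPM per kb. Of the mitochondrial genes Rars2 was highest at 29.2 ± 1.98 CPM per kb and Aars2 next at 14.6 ± 0.34. Fars2 at 2.60 ± 0.28 and Wars2 at 1.37 ± 0.01 CPM per kb were the lowest. Gars stood at 135 ± 1.67 CPM per kb and Kars at 61.0 ± 5.84, both within the range of the cytosolic genes, and the scaffold genes Aimp1 and Aimp2 at 24.2 ± 1.02 and 18.2 ± 1.54.

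**Figure D1:**
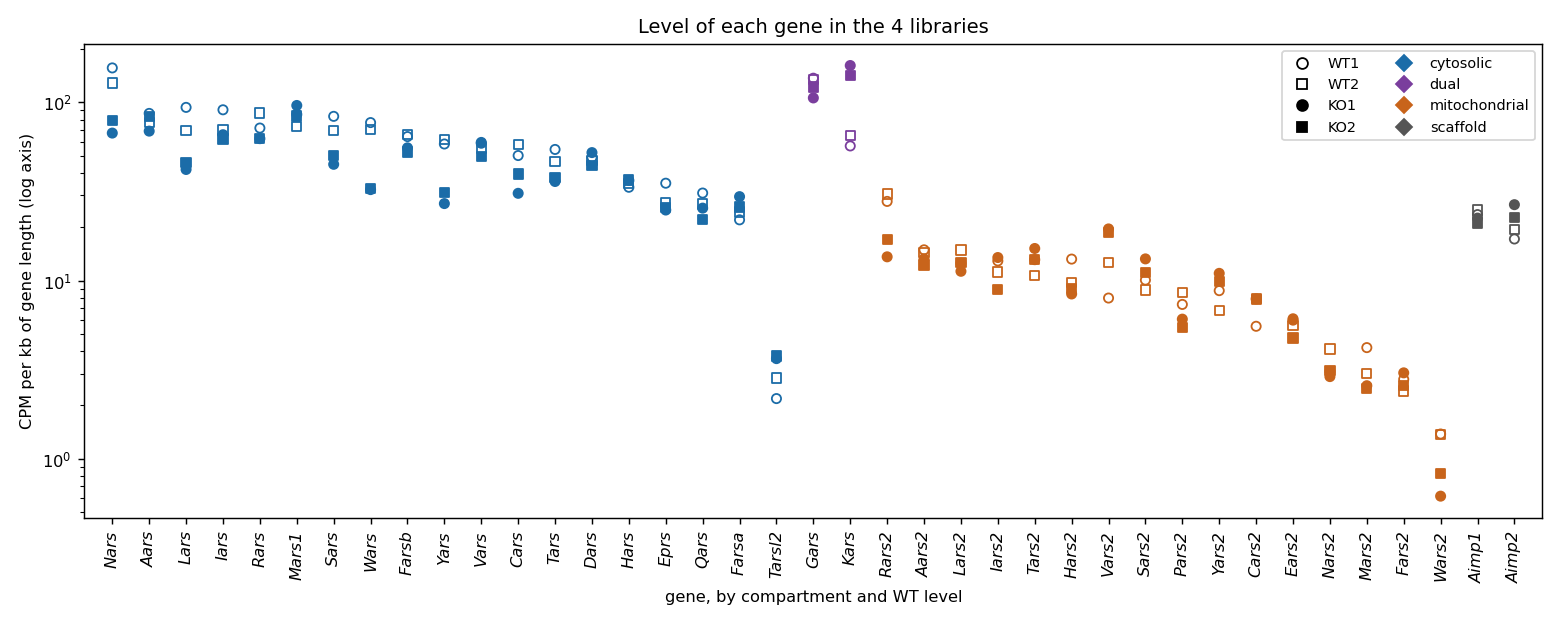
Level of 39 of the genes in CPM per kb of gene length (log axis), grouped by compartment and ordered by WT level, with a point for each of WT1, WT2, KO1 and KO2. Cytosolic genes sit mostly above 20 CPM per kb and mitochondrial genes mostly below 15, and Kars has both KO points above both WT points while Wars, Yars, Nars, Lars and Sars have both below.

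Between KO and WT cells, 8 of the 40 genes passed both thresholds, an adjusted p under 0.05 (Benjamini-Hochberg) and a change of more than 1.5-fold. Kars and Vars2 rose, and Wars, Yars, Nars, Lars, Sars and Rars2 fell. Over all 18157 genes tested, 3945 genes (21.7%) passed both thresholds, 1999 (11.0%) upward and 1946 (10.7%) downward, so the share of synthetase genes that passed was close to the background. Both KO libraries lay above both WT libraries in 10 of the 40 genes and below them in 20, and the groups overlapped in the other 10. Over all genes tested the KO libraries were above in 33.2% and below in 32.5%. The log2 fold change was negative in 27 of the 40 genes, with a median of -0.20, beside a median of 0.0015 over all genes tested. With an unadjusted p under 0.05, 12 of the 40 genes differed, 9 of them lower and 3 higher in KO cells, beside 37.5% of all genes tested. Of the 40 genes, 1 fell and 1 rose without KO1, where 4.26% of all genes tested fell and 4.40% rose. Without KO2, 2 fell and 1 rose, where 4.28% of all genes fell and 4.31% rose.

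Of the 6 genes that fell, 5 were cytosolic, and of the 2 that rose, 1 was dual and 1 mitochondrial. Of the 19 cytosolic genes, 5 fell and none rose by edgeR's quasi-likelihood test; with an unadjusted p under 0.05, 7 were lower and 1 was higher, DESeq2 called 6 down and 0 up, and limma-trend on FPKM called 5 down and 0 up. Over all genes tested, edgeR called 10.7% down, DESeq2 11.4% and limma-trend 8.78%, and 37.5% had an unadjusted p under 0.05 in either direction. Both KO libraries lay below both WT libraries in 12 of the 19 and above them in 3 (Hars, Tarsl2 and Farsa, whose log2FC of 0.26 turned to -0.25 with the chromosome medians removed), beside 32.5% below and 33.2% above over all genes, and the median log2 fold change was -0.30. Taken apart, KO1 had a median of -0.29 against the WT mean and KO2 a median of -0.35. Of the 17 mitochondrial genes, 1 rose and 1 fell, the KO libraries were above in 5, below in 6 and overlapping in 6, and the median was -0.12, with KO1 at 0.04 and KO2 at -0.21 (0.05 when the fit left out KO2). Summed over the cytosolic genes, the level was 6430 and 5747 CPM in WT1 and WT2 and 4525 and 4670 CPM in KO1 and KO2. Summed over the mitochondrial genes it was 894, 912, 925 and 867 CPM in the same order, so that the KO libraries overlapped the WT libraries. Whether the compartments differed in their change was not tested.

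**Figure D2:**
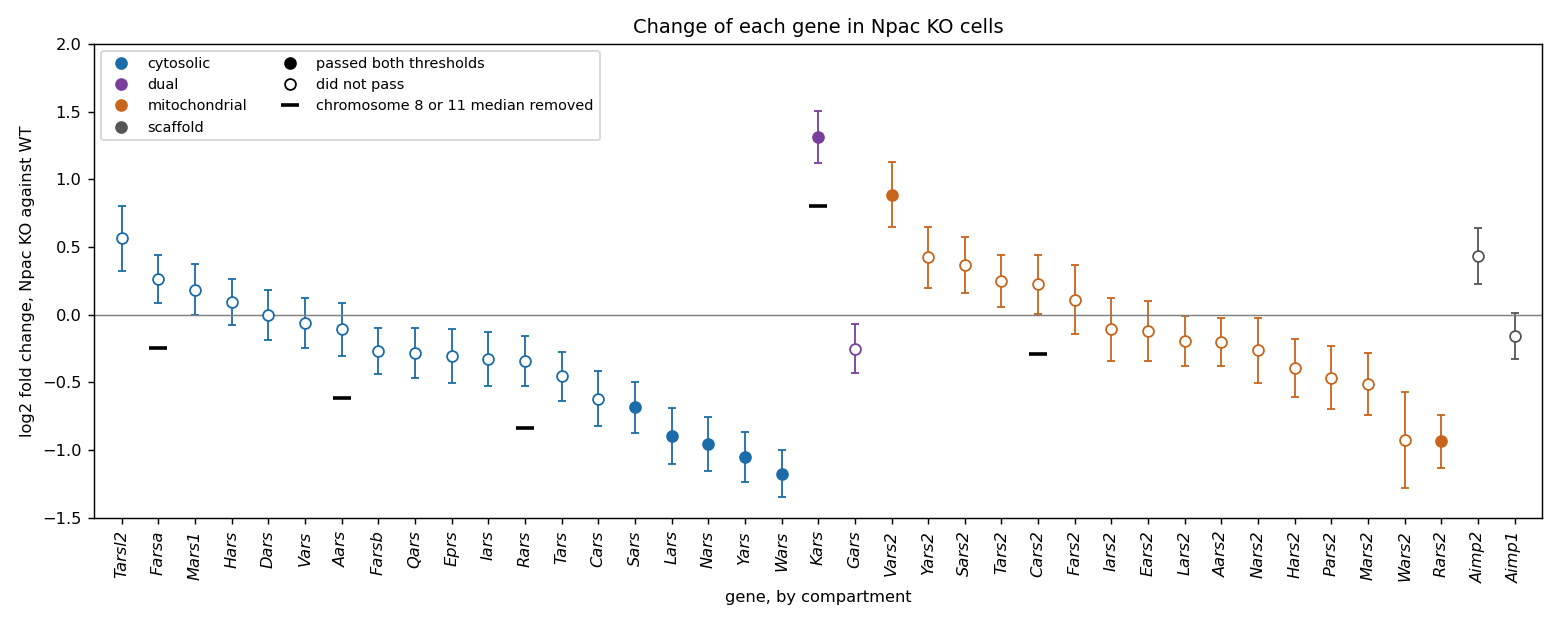
Log2 fold change of 39 of the genes in Npac KO against WT cells, ordered within each compartment, with bars of 1 standard error from edgeR's fit, filled where both thresholds were passed. Black bars give the value after removal of the median of chromosome 8 or 11; Kars and Vars2 are the filled points above 0, and Sars, Lars, Nars, Yars, Wars and Rars2 those below.

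The largest fall was that of Wars, which joins tryptophan to its tRNA. Wars (ENSMUSG00000021266, chromosome 12, 108825956 to 108860100) had 265 and 243 CPM in WT1 and WT2 and 112 and 113 CPM in KO1 and KO2. The groups did not overlap, and the KO mean was 44.3% of the WT mean, with a log2FC of -1.18 ± 0.17 (SE, adjusted p = 0.00529). Wars stayed down-regulated when any of the 4 libraries was left out. Wars shares 544 bases with Wdr25 on the opposite strand, which had between 195 and 325 reads, far fewer than Wars.

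Yars, the tyrosine enzyme (chromosome 4, 129083553 to 129113400), had 347 and 369 CPM in WT1 and WT2 and 161 and 185 CPM in KO1 and KO2. Its log2FC was -1.05 ± 0.18 (SE, adjusted p = 0.00877), and KO1 was the lower of the KO libraries. Without KO1 the value was -0.96 and the adjusted p 0.0802. Yars shares 30 bases with C77080 on the opposite strand, whose log2 fold change was 0.31.

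Nars and Lars, the asparagine and leucine enzymes, both lie on chromosome 18, from 64632718 to 64649723 and from 42335363 to 42395259. Nars had 679 and 558 CPM in WT1 and WT2 and 293 and 344 CPM in KO1 and KO2, with a log2FC of -0.96 ± 0.20 (SE, adjusted p = 0.0154). Lars had 503, 374, 225 and 246 CPM in the same order, with a log2FC of -0.90 ± 0.21 (SE, adjusted p = 0.0220). In both genes WT1 was the highest library and the KO libraries lay closer to each other than the WT libraries did. Nars, the most abundant cytosolic gene per length in WT cells, stood at 67.2 and 79.1 CPM per kb in KO1 and KO2. In the same libraries Aars stood at 68.9 and 83.0 CPM per kb and Mars1 at 96.0 and 83.8. Without KO1 the log2 fold changes of Nars and Lars were -0.85 and -0.84 (adjusted p = 0.122 and 0.141), and without KO2 they were -1.07 and -0.95 (adjusted p = 0.0567 and 0.105), so that neither passed.

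Sars, the serine enzyme (chromosome 3, 108332181 to 108352525), had 429 and 358 CPM in WT1 and WT2 and 231 and 259 CPM in KO1 and KO2. It fell with a log2FC of -0.68 ± 0.19 (SE, adjusted p = 0.0399), the smallest change of the genes that passed. With the chromosome medians removed its log2 fold change was -0.57 (adjusted p = 0.0731), which no longer passed either threshold. Nor did it pass without WT1 (-0.58, under the fold threshold), KO1 (-0.61, adjusted p = 0.307) or KO2 (-0.75, adjusted p = 0.192). Cars, the cysteine enzyme, was next at 331, 382, 203 and 261 CPM in WT1, WT2, KO1 and KO2, with a log2FC of -0.62 and an adjusted p of 0.0637, so that it missed the threshold on p, though it passed in 3 of 10 other settings and without WT1 (-0.75, adjusted p = 0.00374).

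The remaining cytosolic genes did not pass. Among them 7 had both KO libraries below both WT libraries, beside 32.5% of all genes tested. These were Cars, Tars, Rars, Iars, Eprs, Qars and Farsb, with log2 fold changes between -0.62 and -0.26. Rars, the arginine enzyme on chromosome 11, had 231 and 281 CPM in WT cells and 202 CPM in each KO library, with a log2FC of -0.35 (adjusted p = 0.214). With the chromosome medians removed the value was -0.84 (adjusted p = 0.0210), past both thresholds. For Aars, on chromosome 8, the libraries overlapped at 804, 714, 640 and 771 CPM, and the log2 fold change was -0.11, or -0.62 with the medians removed (adjusted p = 0.0615). Vars, Dars and Mars1, the valine, aspartate and methionine enzymes, overlapped between the groups, with log2 fold changes of -0.06, -0.0018 and 0.18, of which those of Vars and Dars turned to 0.03 and 0.04 with the medians removed. Mars1 shares 68 bases with Ddit3 on the opposite strand, and whether reads were counted by strand is not stated in the sources used here. Tarsl2 shares 923 bases with Tm2d3 on the same strand. Tm2d3 had 328, 519, 314 and 369 reads in WT1, WT2, KO1 and KO2, against 224, 334, 382 and 440 for Tarsl2. The log2FC of Tm2d3 was -0.30, and the part of the shared bases in the counts of Tarsl2 was not tested. Tarsl2 had the largest positive value of the cytosolic genes, at 14.7 and 19.1 CPM in WT cells and 24.6 and 25.4 CPM in KO cells, a log2FC of 0.56 with an adjusted p of 0.130, or 0.77 and 0.0113 without WT2.

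Kars, the lysine enzyme of both compartments, went the other way and had the largest change of the 40 genes, though not with the chromosome medians removed. Kars (ENSMUSG00000031948, chromosome 8, 112720075 to 112737955) had 254 and 291 CPM in WT1 and WT2 and 718 and 634 CPM in KO1 and KO2. The KO mean was 248% of the WT mean, with a log2FC of 1.31 ± 0.19 (SE, adjusted p = 0.00495), and Kars stayed up-regulated when any library was left out. With the chromosome medians removed the log2 fold change was 0.80 (adjusted p = 0.0253), smaller in size than those of Wars (-1.07), Yars, Vars2, Rars2, Nars, Rars and Wars2. Of the 979 genes of chromosome 8 that were tested, 256 rose, beside 11.0% of all genes tested. Kars ranked 164th of the 979 by log2 fold change. The 5 tested genes on each side of Kars start between 112589670 and 114860297. All had both KO libraries above both WT libraries, beside 33.2% of all genes tested. Their log2 fold changes ran from 0.30 to 1.82, with a median of 0.72. With the chromosome medians removed the values ran from -0.21 to 1.31. These neighbors were looked up after the value of Kars was seen. Tmem231, a ciliary transition zone protein, at 1.82 and Gabarapl2, an autophagy protein, at 1.19 were the 2 that passed both thresholds, beside 11.0% of all genes that rose. The immediate neighbors were not among those that passed. Adat1, a tRNA adenosine deaminase, stood at 0.30, or -0.21 with the medians removed. Terf2ip, a telomere protein that starts next to Kars on the other strand, stood at 0.59, or 0.07 with the medians removed. Gars, the glycine enzyme of both compartments, had 426 and 418 CPM in WT cells and 330 and 380 CPM in KO cells, a log2FC of -0.25 (adjusted p = 0.352).

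Among mitochondrial genes Rars2, the arginine enzyme, fell. Rars2 (chromosome 4, 34614957 to 34660167) had 77.0 and 84.8 CPM in WT1 and WT2 and 37.6 and 46.9 CPM in KO1 and KO2, a log2FC of -0.94 ± 0.20 (SE, adjusted p = 0.0158). It was the highest of the mitochondrial genes per length in WT cells and stood at 13.6 and 16.9 CPM per kb in the KO libraries, near Aars2. Without KO1 its log2 fold change was -0.80 (adjusted p = 0.192) and without KO2 it was -1.09 (adjusted p = 0.0722). Vars2, the valine enzyme (chromosome 17, 35966526 to 35978484), had 43.5 and 68.8 CPM in WT1 and WT2 and 106 and 102 CPM in KO1 and KO2, a log2FC of 0.89 ± 0.24 (SE, adjusted p = 0.0371). Its WT libraries differed more than those of any other mitochondrial gene, by 0.66 on the log2 scale, and without WT1 the log2 fold change was 0.57, below the fold threshold. Without KO1 or KO2 its value was 0.84 or 0.94, with an adjusted p of 0.147 or 0.116.

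Wars2, the lowest of the mitochondrial genes, had 8.18 and 8.13 CPM in WT cells and 3.67 and 4.91 CPM in KO cells. Its log2 fold change of -0.92 was nearly that of Rars2, but the standard error was 0.36 and the adjusted p 0.0992, so that it did not pass. Without WT2 (-0.93, adjusted p = 0.0448) and with the replicate number as a block (-0.94, adjusted p = 0.0426) it did. Mars2, Pars2, Hars2 and Aars2 also had both KO libraries below both WT libraries, with log2 fold changes of -0.51, -0.46, -0.39 and -0.20 that did not pass, except that Mars2 (-0.74, adjusted p = 0.00209) and Hars2 (-0.60, adjusted p = 0.00893) passed without WT2. Tars2, Sars2 and Yars2 had both KO libraries above, with log2 fold changes between 0.25 and 0.42 that did not pass either, except that Yars2 passed without WT1 (0.60, adjusted p = 0.0365). Cars2, on chromosome 8, overlapped between the groups, with 0.22, or -0.29 with the medians removed. Hars2 and Hars overlap by 198 bases at their starts on opposite strands, and their log2 fold changes were -0.39 and 0.09.

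The scaffold genes did not pass. Aimp1 had 132 and 140 CPM in WT cells and 126 and 117 CPM in KO cells, a log2FC of -0.16 (adjusted p = 0.538). Aimp2 had 28.3, 31.9, 44.1 and 37.2 CPM, a log2FC of 0.43 (adjusted p = 0.167), and shares 1548 bases with Eif2ak1 on the opposite strand. Of the 10 genes of the multisynthetase complex, Kars rose and Lars fell, and with the chromosome medians removed Rars fell as well. In 6 of the 10 both KO libraries lay below both WT libraries, beside 32.5% of all genes tested. Summed over these 10 genes, the level was 2973 and 2610 CPM in WT1 and WT2 and 2836 and 2653 CPM in KO1 and KO2, so that the groups overlapped. Without Kars, left out after its values were seen, the other 9 genes summed to 2719 and 2320 CPM in WT1 and WT2 and 2118 and 2018 CPM in KO1 and KO2, and the groups did not overlap. Of the 12 cytosolic genes outside the complex, Wars, Yars, Nars and Sars fell and none rose. Their sum was 3870 and 3599 CPM in WT cells and 2578 and 2806 CPM in KO cells. By enzyme class, leaving aside Eprs, which joins an enzyme of each class and did not pass, 3 of the 9 cytosolic or dual genes of class I fell (Wars, Yars and Lars), and of the 11 of class II, Nars and Sars fell and Kars rose, beside 10.7% of all genes that fell and 11.0% that rose. With the chromosome medians removed, 4 genes of class I fell (Wars, Yars, Lars and Rars), and of class II Nars fell and Kars rose.

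For 17 amino acids the ratio of the level per kb of the cytosolic gene to that of the mitochondrial gene was taken in each library. Eprs, which serves both glutamate and proline, stands in both of their ratios, and for phenylalanine the mean of Farsa and Farsb was used, so the 17 ratios are not separate gene pairs. The ratios are given as values and were not tested. In all 17 the cytosolic gene was the higher, with a mean WT ratio between 2.71 for arginine and 53.7 for tryptophan. Over the 17 amino acids the median ratio was 7.05 and 5.35 in WT1 and WT2 and 4.15 and 4.73 in KO1 and KO2. The ratio was lower in both KO libraries than in both WT libraries for 9 amino acids (among them asparagine, cysteine, leucine, phenylalanine, serine, threonine, tyrosine and valine) and higher for 3 (arginine, histidine and methionine). With the chromosome medians removed it was lower for 9 and higher for 2, as alanine joined the lower group, cysteine left it and arginine came to overlap. No share over other gene pairs was taken to set beside these counts. For all genes tested, taken singly, the KO libraries were below in 32.5% and above in 33.2%.

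The ratio of tyrosine moved the most. Yars stood over Yars2 by 6.65 in WT1 and 9.18 in WT2, and by 2.46 in KO1 and 3.15 in KO2, with Yars down-regulated and Yars2 at a log2FC of 0.42 (adjusted p = 0.209). For serine, the ratio of Sars to Sars2 was 8.29 and 7.87 in WT cells and 3.39 and 4.53 in KO cells, with Sars2 at 0.36 (adjusted p = 0.236). For valine the mitochondrial gene carried the change, and the ratio of Vars to Vars2 was 7.39, 4.40, 3.06 and 2.68. The ratios for asparagine were 50.4 and 31.0 in WT cells and 23.2 and 25.3 in KO cells, and those for leucine 7.48, 4.70, 3.73 and 3.62. Nars2 and Lars2 had log2 fold changes of -0.26 and -0.19 that did not pass. For arginine, whose mitochondrial gene fell, the ratio of Rars to Rars2 was 2.58 and 2.84 in WT cells and 4.60 and 3.69 in KO cells. For tryptophan the ratios overlapped at 55.9, 51.5, 52.5 and 39.8, as Wars and Wars2 were both lower in the KO libraries.

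**Figure D3:**
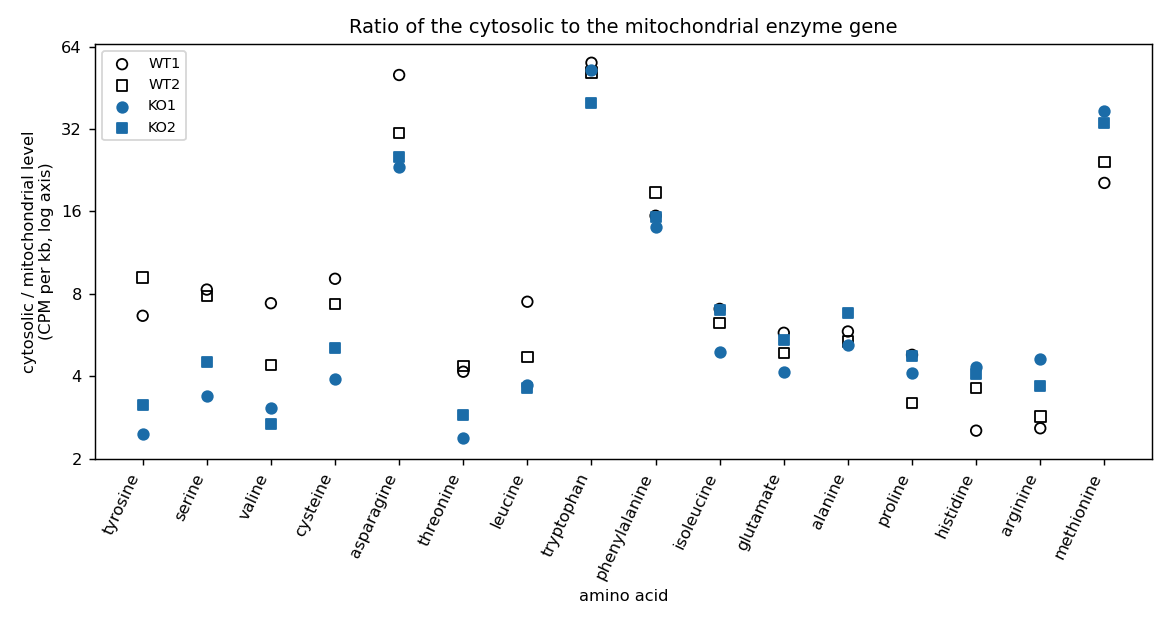
Ratio of the cytosolic to the mitochondrial gene of 16 amino acids, in CPM per kb (log axis), with open points for WT1 and WT2 and filled points for KO1 and KO2. Both KO points lie below both WT points for 8 of them, with the widest gap for tyrosine (6.65 and 9.18 against 2.46 and 3.15), and above them for arginine, histidine and methionine.

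The promoters of these genes were searched for the Atf4 core, since many cytosolic synthetase genes are known targets of Atf4. RefSeq promoters of the GRCm38.p6 assembly, 250 bases before to 50 after the start, were matched by symbol for 30 of the 40 genes (among the others were Cars, Hars, Hars2, Lars, Nars, Pars2, Rars, Vars and Wars). TGATGNAA, read on both strands, was found in 5 of 14 cytosolic or dual genes and in 0 of 14 mitochondrial genes, beside 3.97% of all 32851 promoters. A window that holds it is given for each gene in the direction of the gene, with the core in capitals on either strand. TTGCATCA and TTTCATCA are the core read from the opposite strand. Aars also holds the core as TTGCATCA at bases -112 to -105 from the start, in a window not shown.
Yars, chr4:129189895-129189924, plus strand: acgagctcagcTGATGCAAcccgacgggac
Gars, chr6:55037960-55037989, plus strand: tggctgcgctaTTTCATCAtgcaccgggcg
Aars, chr8:111033840-111033869, plus strand: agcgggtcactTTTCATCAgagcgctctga
Iars, chr13:49682126-49682155, plus strand: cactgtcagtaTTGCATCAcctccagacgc
Tars, chr15:11399655-11399684, minus strand: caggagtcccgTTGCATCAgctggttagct

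Of the 5 genes that carry the core in this window, Yars fell, beside 10.7% of all genes tested. The other 4 did not pass, with log2 fold changes of -0.11 for Aars, -0.25 for Gars, -0.33 for Iars and -0.46 for Tars. The promoter of Sars, the other down-regulated cytosolic gene with an entry, did not hold these letters. In the same way the core of the Nrf1 site, GCATGCGC, was found in 3 of 14 mitochondrial genes (Rars2, Vars2 and Wars2) and in 0 of 14 cytosolic or dual genes, beside 2.71% of all promoters. Nrf1 is a transcription factor of many nuclear genes for mitochondrial proteins. The 3 genes include the mitochondrial gene that rose and the one that fell, beside 21.7% of all genes tested that passed in either direction. The 30-base windows of the 3 genes are shown with the core in capitals, which Vars2 holds at 2 places.
Rars2, chr4:34614895-34614924, plus strand: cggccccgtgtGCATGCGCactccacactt
Vars2, chr17:35667620-35667649, minus strand: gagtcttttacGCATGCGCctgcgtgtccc
Vars2, chr17:35667594-35667623, minus strand: tccccgcccacGCATGCGCgcgcacctcgc
Wars2, chr3:99141015-99141044, plus strand: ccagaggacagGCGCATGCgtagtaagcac

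The E-box CACGTG, a site of Myc and other factors, was found in 4 of 14 cytosolic or dual genes (Aars, Farsb, Iars and Tars) and in 1 of 14 mitochondrial genes (Ears2), beside 7.15% of all promoters. The ETS core CCGGAAGT was found in Farsa, Mars1, Rars2 and Aimp1, beside 3.89% of all promoters. None of the 5 genes with the E-box passed the thresholds, and of the 4 with the ETS core Rars2 did, beside 21.7% of all genes tested. The Kars promoter held none of the 4 cores. A match describes the letters of these windows and is no evidence that a factor binds there.

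Many genes of the amino acid response other than synthetases fell in KO cells. Of 34 tested genes of this list, which joins Atf4, its upstream kinases and its known targets, 22 fell and none rose by edgeR's quasi-likelihood test, beside the 10.7% of all genes that fell. With an unadjusted p under 0.05, 25 were lower and 1 was higher, DESeq2 called 24 down and 0 up, and limma-trend 19 down and 0 up. Both KO libraries lay below both WT libraries in 25 of the 34, beside 32.5% of all genes, and the median log2 fold change was -1.08. KO1 was lower than KO2 in 28 of the 34 genes, in 11 of the 19 cytosolic synthetase genes and in 50.5% of all genes tested.

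Atf4 itself had 581 and 412 CPM in WT1 and WT2 and 195 and 242 CPM in KO1 and KO2, a log2FC of -1.18 ± 0.23 (SE, adjusted p = 0.0125), or -1.04 without KO1 (adjusted p = 0.0561). Eif2ak4, which encodes Gcn2, had 47.4, 42.1, 45.2 and 45.6 CPM and did not pass (adjusted p = 0.951). The largest changes of the list were those of Slc7a11, Chac1 and Atf5. Slc7a11, the cystine transporter, counted 130 and 56 reads in WT1 and WT2 against 1 and 6 in KO1 and KO2, so that its log2FC of -4.74 (adjusted p = 0.00849; -4.05 without KO1 and -6.33 without KO2) rests on few reads, and on the scale of log2(FPKM + 1) it was -0.47 and did not pass (adjusted p = 0.0631). Chac1, a glutathione-degrading enzyme, had 3579 and 2374 reads in WT cells and 28 and 303 in KO cells, a log2FC of -4.25 ± 0.82 (SE, adjusted p = 0.0121) that was -3.41 without KO1 and -6.66 without KO2. Atf5, a related transcription factor, had 2305 and 2119 reads in WT cells and 94 and 239 in KO cells, a log2FC of -3.77 (adjusted p = 0.00133) that was -3.31 without KO1 and -4.48 without KO2. Asns, asparagine synthetase, which makes the amino acid that Nars uses, had 678, 621, 426 and 448 CPM, a log2 fold change of -0.57 that missed both thresholds (adjusted p = 0.0572). It passed without WT2 (-0.64, adjusted p = 0.00926) and among protein-coding genes only (-0.60, adjusted p = 0.0479). Ddit3, the neighbor of Mars1 named above, had 1933 and 3642 reads in WT cells and 195 and 687 in KO cells, while Mars1 did not pass.

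Of 13 tested charging partners, among them the subunits of the mitochondrial glutamyl-tRNA amidotransferase (Gatb, Gatc and Qrsl1), the formyltransferase Mtfmt, the CCA-adding enzyme Trnt1 and the tRNA exporter Xpot, none passed by edgeR's quasi-likelihood test, DESeq2 or limma-trend, and 3 were higher and 0 lower with an unadjusted p under 0.05. Over all genes tested 21.7% passed and 37.5% had an unadjusted p under 0.05. The median log2 fold change of the charging partners was 0.20. Eef1e1, a further scaffold of the multisynthetase complex, had 64.9 and 73.4 CPM in WT cells and 96.8 and 90.1 CPM in KO cells, a log2FC of 0.43 (adjusted p = 0.119). None of the 5 cytosolic elongation factors, which bring charged tRNA to the ribosome and move it on, passed by any of the 3 tools, and 1 was higher and 0 lower with an unadjusted p under 0.05, beside the same shares of all genes.

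Of the 9 mitochondrial elongation, initiation and release factors, 2 rose and none fell by edgeR's quasi-likelihood test, DESeq2 or limma-trend, with 3 higher and 0 lower at an unadjusted p under 0.05, beside 11.0% of all genes that rose. Tufm, which delivers charged tRNA to the mitochondrial ribosome, had 59.5 and 86.0 CPM in WT1 and WT2 and 187 and 177 CPM in KO1 and KO2, a log2FC of 1.32 ± 0.22 (SE, adjusted p = 0.00767). Gfm1, the mitochondrial elongation factor G, had 73.3, 65.8, 123 and 107 CPM, a log2FC of 0.73 ± 0.18 (SE, adjusted p = 0.0286). Without KO1 or KO2 Gfm1 stood at 0.61 or 0.84 and did not pass (adjusted p = 0.307 and 0.134). Both KO libraries lay above both WT libraries in 6 of the 9 factors, beside 33.2% of all genes, and their median log2 fold change was 0.45.

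**Figure D4:**
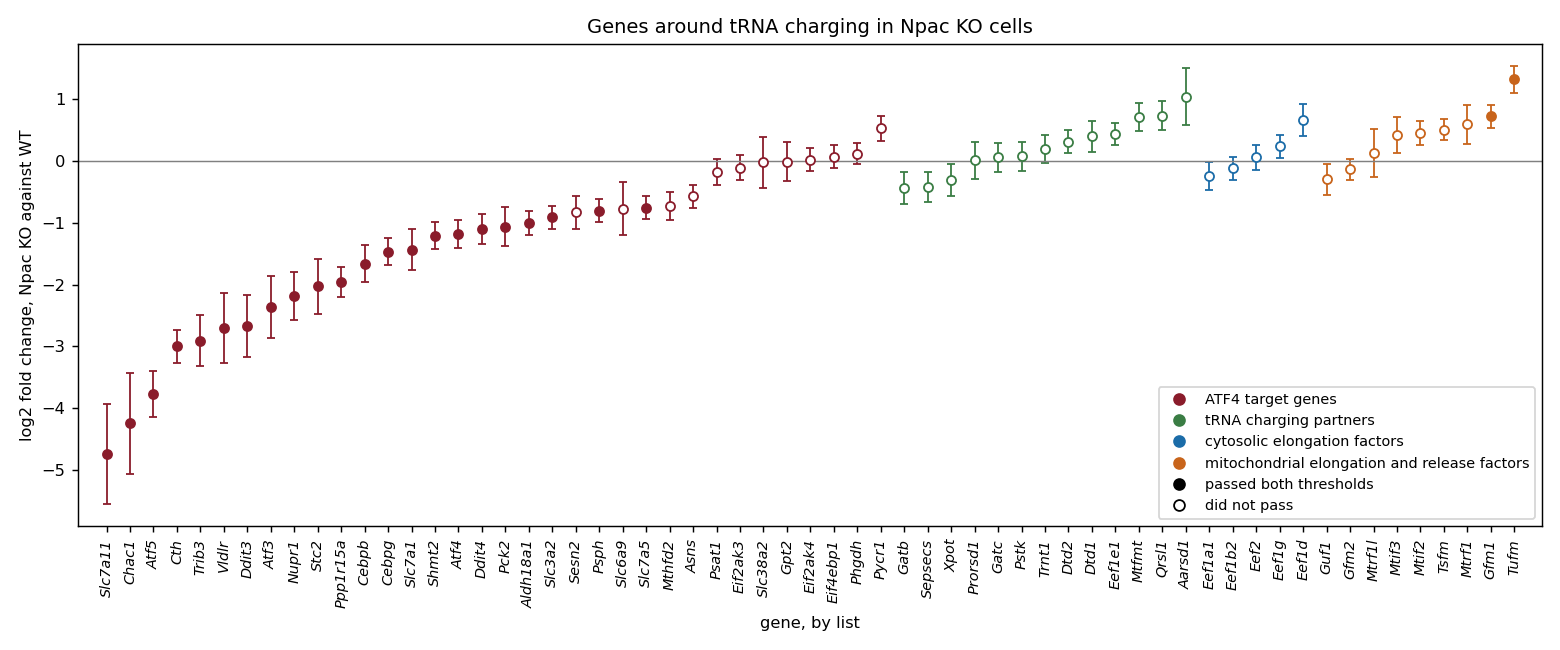
Log2 fold change in Npac KO against WT cells of the genes of 4 lists around tRNA charging, with filled points where both thresholds were passed. Of the amino acid response list 22 of 34 genes are filled, all below 0, down to -4.74 for Slc7a11, while the charging partners and cytosolic elongation factors have no filled point and Tufm and Gfm1 are filled above 0.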

How the data were processed

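Paired-end RNA-seq reads of 4 libraries were mapped with HISAT and counted per gene (the submitters' processing notes name HISAT2 2.0.5, featureCounts 1.5.0-p3 and mm10). The authors deposited these counts without normalization, and FPKM values, which equal the counts over gene length and 1 factor per library. The gene length in the deposited table served as the length for CPM per kb. Of the members, 1 of 40 has the GRCm38 coordinates of GENCODE M21, so the table does not follow that build and its coordinates are given as deposited.

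Counts were analyzed in R 4.3.3 with edgeR 4.0.16 (TMM, filterByExpr, quasi-likelihood test, all 18157 genes, Benjamini-Hochberg). The thresholds were those of the study's methods, 1.5-fold and an adjusted p of 0.05. CPM was computed from TMM-normalized counts. DESeq2 1.42.0 and limma 3.58.1 (limma-trend on FPKM) served as alternatives, with others given in the closing section. The test was tried on simulated counts in which 189 of 17587 tested genes were changed. It recovered 17.0% of the 2-fold changes and 67.4% of the 4-fold changes, and 4.76% of its calls were false. A gene that did not pass may therefore still have changed by 2-fold. Between replicates, log2 CPM correlated at 0.967 (WT) and 0.983 (KO) across genes, and the spread exceeded counting error (chi-square per gene 48.4 and 14.9). Pseudogenes matched to members by blastn 2.17.0+ at 90% identity over 200 bases were found for Aimp1 and Iars and had at most 1 read. Sharing reads with another gene could affect 12 members that overlap one with at least 100 reads.

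The members and lists were chosen with earlier results of these data known. Named were members that passed, the 2 highest and lowest by WT level of each compartment, the largest changes, both genes of an amino acid where 1 passed, up to 3 genes of each list that passed with the largest changes, Atf4, Asns, Eef1e1 and Glyr1. Some results are not reported here. Other members were named to account for the rest, and other genes after their values were seen.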

Additional observations from a re-analysis of the deposited data

How the results depend on the processing

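DESeq2, upper-quartile normalization, 2 other filters, a replicate block, FPKM with limma-trend at both pseudocounts, protein-coding genes only, no fold threshold and the removal of chromosome medians turned the sign of no member that passed, and 2 members rose in each. Among members that did not pass, the removal of chromosome medians turned 5 (Farsa to -0.25, Cars2 to -0.29, and Lars2, Vars and Dars to values from 0.0085 to 0.04), and upper-quartile normalization and the 2 filters turned Dars to at most 0.03. In the fit with the replicate block 8 members fell and 2 rose, and over all genes 3128 rose and 2994 fell, against 1999 and 1946. The deviations of libraries with the same number correlated at 0.332, but with 2 pairs the libraries share only a number. Leaving out each library in turn gave 821 to 3384 genes that fell and 826 to 3571 that rose, and of the members 1 to 9 fell and 1 to 3 rose. Kars and Wars passed in all 10 settings and all 4 leave-outs, whereas Nars, Lars, Sars, Vars2 and Rars2 lost their call without KO1 or KO2, Sars and Vars2 also without WT1, and Yars without KO1. A group left with 1 library is assumed to vary like the other group. With the chromosome medians removed Sars lost its call and Rars gained one, and with the replicate block Wars2 and Cars gained one.

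The median of the cytosolic genes lay between -0.39 and -0.21 with a library left out, and that of the mitochondrial genes between -0.22 without KO1 and 0.05 without KO2, so that it turned sign. Charging partners that passed numbered 1 with no filter, 2 with the replicate block, 2 with the chromosome medians removed and 0 to 4 with a library left out. Cytosolic elongation factors that passed numbered 1 with no filter, 1 with the replicate block and 0 to 1 with a library left out. Mitochondrial elongation and release factors that passed numbered 1 to 3, and genes of the amino acid response that rose 0 to 1, with a library left out. The causes of these differences were not tested.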
